A study of Mus musculus with 11 samples.

Results

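The sodium/bile acid carrier gene *Slc10a6* and 6 related genes for carriers of organic anions were examined in endothelial cells (ECs) sorted from livers of germ-free (GF) mice and of mice raised conventionally (CONV-R). The 7 genes, out of 29307 in the count table, were taken by symbol. They are the SLC10 family genes *Slc10a6*, *Slc10a3* and *Slc10a7* and the SLCO family genes *Slco2a1*, *Slco3a1*, *Slco2b1* and *Slco1a4*. *Slc10a6* was chosen because of its difference between these same libraries, so the values of the 7 genes in this contrast are given as a description, without p.

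The study asked how the gut microbiota shapes the transcriptome of the liver endothelium. ECs were sorted from the livers of male C57BL/6J mice of 10 to 12 weeks, first with magnetic beads for CD146 and then by flow cytometry for CD31, CD105 and CD146. The 5 GF mice lived in isolators without microbes, the 6 CONV-R mice were specific pathogen-free, and both groups came from the same colonies and ate the same autoclaved diet. RNA of each mouse, 20 ng, was amplified as whole transcriptome and sequenced as 1 library per mouse, and 1 further GF library had been left out by the authors because of few mapped reads.

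SLC10 proteins form the family of the sodium-dependent bile acid carriers. SLC10A6 itself takes up sulfated steroid hormones and sulfated bile acids rather than the common bile salts. SLCO genes encode the organic anion transporting polypeptides, which take up bile acids, steroid conjugates, thyroid hormones, prostaglandins and many drugs without sodium. In liver, the best known members of both families sit in the hepatocyte membrane that faces the sinusoid, just across from the ECs studied here.

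The totals were 7922855 to 14669352 counts for the CONV-R and 7242717 to 16164588 counts for the GF libraries. GF replicate 2 had counts in 22674 genes, above the 15456 to 18495 of the other 10 libraries, and 9224 of its genes had only 1 to 10 counts. The 14 markers of sinusoidal endothelium were all tested, none passed the test, and their summed level ranged from 36145 to 51645 CPM (counts relative to the library total) in GF and from 37432 to 45392 in CONV-R libraries. Of these markers 11 had a Log2FC above 0, with a median of 0.33, and 6 passed without GF replicate 5 and 1 without CONV-R replicate 1. Of the sorting markers, *Pecam1* (CD31) had a Log2FC of 0.46 (adjusted p = 0.112), *Eng* (CD105) of 0.26 (adjusted p = 0.336) and *Mcam* (CD146) of 0.37 (adjusted p = 0.0764) in the quasi-likelihood test of edgeR, adjusted after Benjamini and Hochberg. Log2FC is the log2 fold change of GF relative to CONV-R mice throughout, so that a positive value means a higher level in GF mice. CPM were scaled so that libraries can be compared.

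*Slc10a6* (ENSMUSG00000029321) lies on chromosome 5 from 103605711 to 103629403 (GRCm38, minus strand). Its 1 annotated transcript has 6 exons and 2124 bases, and no exon of another gene overlaps it. The 250 bases just upstream of its start (RefSeq, GRCm38.p6, chr5:103629404-103629653, minus strand) are shown because this gene differs most among the 7. Capitals mark a match to AGAACA, a motif of the glucocorticoid receptor, with the 6 bases after it, which end in TGT.

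Slc10a6 promoter: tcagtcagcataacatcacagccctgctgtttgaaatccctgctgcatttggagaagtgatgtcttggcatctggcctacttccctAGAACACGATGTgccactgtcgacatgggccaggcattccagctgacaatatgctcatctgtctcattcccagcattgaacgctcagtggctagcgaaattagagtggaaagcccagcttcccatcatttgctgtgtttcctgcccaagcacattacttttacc

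The capitals run from base -164 to base -153 relative to the start. The motif AGAACANNNTGT that they match was chosen after this sequence had been read, and 0.368% of the 32851 mouse promoters of the same length hold it on either strand. The shorter motif AGAACA, which it contains, is found in 16.1% of them. The full palindrome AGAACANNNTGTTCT (0.00913%), the inverted repeat AGGTCANTGACCT that is known for the bile acid receptor FXR (0.00609%), the nuclear receptor motif AGGTCA that it contains (14.0%) and the E-box CACGTG (6.02%) had no match in this window. Promoters of 5 of the 7 genes were found in the RefSeq table, those of *Slc10a3* and *Slco3a1* not being among them. Of the other 4 genes, the third promoter of *Slco2b1* alone held 1 of these motifs, an AGAACA on the minus strand. The *Slc10a6* window had 49.2% GC and 4 CpG, against medians of 52.4% and 6 over all promoters. A match is a match of letters, and binding was not measured.

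*Slc10a6* was at a low level in every CONV-R mouse and clearly present in every GF mouse. The 6 CONV-R libraries held 1.55 CPM at the lowest, 2.85 at the median and 3.78 at the highest. In the GF libraries 1, 2, 4, 5 and 6 it stood at 37.3, 39.1, 28.3, 27.6 and 24.1 CPM. The groups did not overlap, GF replicates 1 and 2 were the highest, and the lowest GF value lay far above the highest CONV-R value. Means were 31.3 ± 6.54 CPM (SD, n = 5) and 2.84 ± 0.80 CPM (SD, n = 6), and the fitted Log2FC was 3.47 with a standard error (SE) of 0.22, an 11.1-fold higher level in GF mice.

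The CONV-R values of *Slc10a6* rest on 20 to 47 reads in each library, 204 in all, and the GF values on 178 to 574 reads, 1663 in all. With the libraries of a group pooled, this gives 2.78 CPM with a 95% Poisson interval of 2.41 to 3.19 in CONV-R and 32.5 CPM with an interval of 30.9 to 34.1 in GF mice; such intervals cover counting error only. The coefficient of variation between single libraries was 28.2% in CONV-R and 20.9% in GF mice. It holds both the spread between mice and the counting error of each library, which is relatively larger than that of the pooled reads. These parts were not separated. Leaving out any 1 library kept the Log2FC between 3.34 and 3.57. In the authors' normalized values on a log2 scale the same difference was 2.67. These values are compressed: their SD over the 11 libraries was a median of 0.306 times that of log2 scaled counts for genes with a mean of 1 to 10 reads and 0.861 times for genes with 10000 or more, and 0.763 times for *Slc10a6*.

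**Figure D1:**
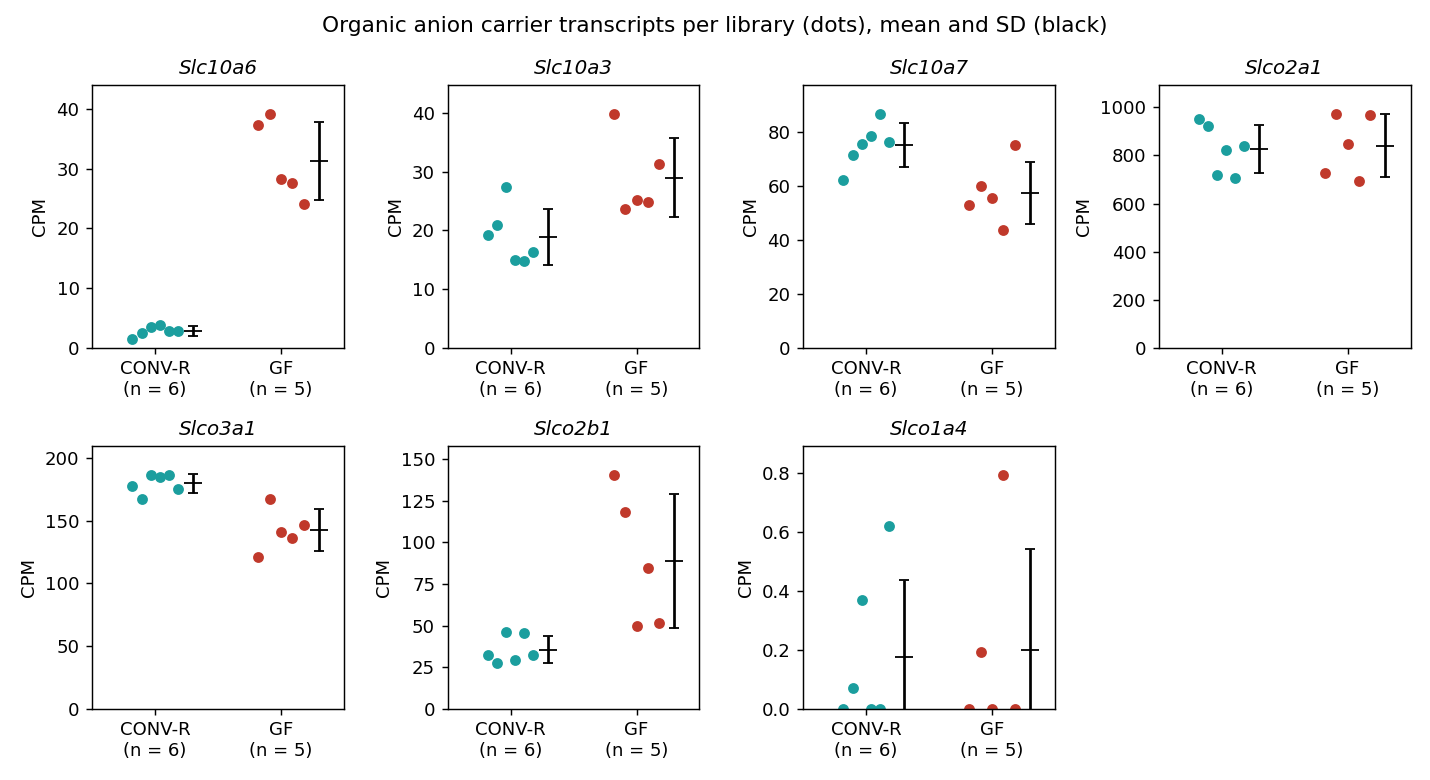
Level of each of the 7 carrier genes in CPM in the 6 CONV-R (turquoise) and 5 GF (red) libraries, with group mean and SD in black and a separate linear axis from 0 for each gene. The 5 GF libraries lie above all CONV-R libraries for *Slc10a6* and *Slco2b1* and below them for *Slco3a1*, and *Slco1a4* stays below 0.8 CPM throughout.

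Of the 7 genes, 6 passed the filter on low counts. Past the threshold of 0.05 were 2 of them, *Slc10a6* and *Slco2b1*, where 7.48% of all 12905 tested genes were called (4.80% higher and 2.67% lower in GF mice). DESeq2, which called 9.83% of the 15540 genes it tested, also passed *Slc10a3* and *Slco3a1*. These counts are a description, since the genes were chosen on this contrast. Among the 5 tested relatives of *Slc10a6*, 1 passed, and their median Log2FC was 0.02, next to -0.01 over all tested genes.

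The other SLC10 genes had far smaller Log2FC, above 0 for *Slc10a3* and below 0 for *Slc10a7*. *Slc10a3*, on chromosome X from 74369217 to 74373349 (minus strand), encodes a family member whose substrate is not established. It ranged from 14.7 over a median of 17.8 to 27.4 CPM in CONV-R mice and stood at 39.8, 23.7, 25.1, 24.9 and 31.2 CPM in GF mice 1, 2, 4, 5 and 6. CONV-R replicate 3 was the highest of its group and lay above 3 of the GF values, so that the groups overlapped, although 2 GF libraries were above all CONV-R ones. The Log2FC was 0.62 (SE 0.19) and the gene did not pass the threshold, but it did so without CONV-R replicate 3 (Log2FC 0.75) and without GF replicate 5 (Log2FC 0.67). Of its exon bases, 258 (12.8%) are shared with *Ubl4a* on the same strand, so its counts are uncertain to that extent.

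*Slc10a7*, on chromosome 8 from 78509346 to 78734003 (plus strand), encodes a membrane protein of the secretory pathway that is linked to calcium handling and bone formation rather than to bile acids. Its level was 62.2 CPM at the lowest, 75.9 at the median and 86.5 at the highest in CONV-R mice. GF mice 1, 2, 4, 5 and 6 had 52.9, 60.0, 55.3, 43.8 and 75.0 CPM. Below all CONV-R libraries lay 4 of these, whereas GF replicate 6 fell inside the CONV-R range. The Log2FC was -0.39 (SE 0.14), which did not pass the threshold, and it was -0.50 and passed without GF replicate 6.

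Among the SLCO genes, the prostaglandin carrier had the highest level and nearly the same mean in both groups, 1 broad carrier was somewhat lower and another was higher in GF mice. *Slco2a1*, on chromosome 9 from 102988712 to 103096002 (plus strand), encodes the carrier that clears prostaglandins from the blood. It ranged from 707 over a median of 831 to 951 CPM in CONV-R mice, and GF mice 1, 2, 4, 5 and 6 had 726, 972, 846, 694 and 968 CPM. The 2 ranges covered each other almost fully. With means of 841 ± 130 (SD, n = 5) in GF and 827 ± 101 (SD, n = 6) in CONV-R mice, the Log2FC was 0.02 (SE 0.12), and without 1 library it lay between -0.03 and 0.09.

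*Slco3a1*, on chromosome 7 from 74275419 to 74554780 (minus strand), encodes a carrier of prostaglandins and thyroxine that many tissues express. CONV-R libraries were close together, from 168 over a median of 181 to 186 CPM, with a coefficient of variation of 4.16%, the smallest among the 7 genes. GF mice 1, 2, 4, 5 and 6 had 121, 168, 141, 136 and 147 CPM. The groups did not overlap only by a hair, as GF replicate 2 (167.58 CPM) nearly reached the lowest CONV-R library (167.64 CPM). The Log2FC was -0.34 (SE 0.10). The gene did not pass the threshold with all libraries and passed without GF replicate 2, where the Log2FC was -0.40.

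*Slco2b1*, on chromosome 7 from 99657804 to 99711340 (minus strand), encodes a carrier of steroid sulfates, bile acids and drugs. It was low and fairly even in CONV-R mice, with 27.7, 32.0 and 46.2 CPM as lowest, median and highest value. In GF mice 1, 2, 4, 5 and 6 it reached 141, 119, 49.8, 84.6 and 51.5 CPM. All GF values were above the CONV-R range, GF replicates 4 and 6 only slightly so, and the coefficient of variation among GF libraries was 45.3%. The means were 89.0 ± 40.3 CPM (SD, n = 5) and 35.5 ± 8.27 CPM (SD, n = 6) and the Log2FC was 1.33 (SE 0.25), a 2.52-fold higher level in GF mice. Without 1 library the Log2FC lay between 1.10, when GF replicate 1 was left out, and 1.48. Antisense genes *Gm15635* and *Gm34280* cover 471 (7.91%) and 78 bases of its exons, and reads of both strands cannot be told apart where the counting did not use strand.

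*Slco1a4*, on chromosome 6 from 141805440 to 141856199 (minus strand), encodes a carrier of bile acids and thyroid hormones known from hepatocytes and brain capillaries. It was practically not measured in these cells, with 8 reads in GF and 12 in CONV-R mice, and did not pass the filter on low counts. In 6 libraries it had 0 reads, which at this depth allows up to 0.195 to 0.407 CPM. Its highest values were 0.79 CPM in GF replicate 5 and 0.62 CPM in CONV-R replicate 6, from 6 and 8 reads.

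GF and CONV-R libraries did not overlap for 3 of the 6 tested genes, *Slc10a6* and *Slco2b1* being higher and *Slco3a1* lower in GF mice. Over all tested genes this was so for 5.59% (3.22% higher and 2.37% lower). The Log2FC was above 0 for 4 genes and below 0 for 2. After subtraction of the group means, the levels of *Slc10a6* and *Slco2b1* had a Pearson correlation of 0.52 over the 11 libraries, the highest among the 15 pairs, and both had their highest values in GF replicates 1 and 2. The lowest was -0.49, between *Slco2a1* and *Slco2b1*. These correlations are a description, from 11 libraries that differ in depth.

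**Figure D2:**
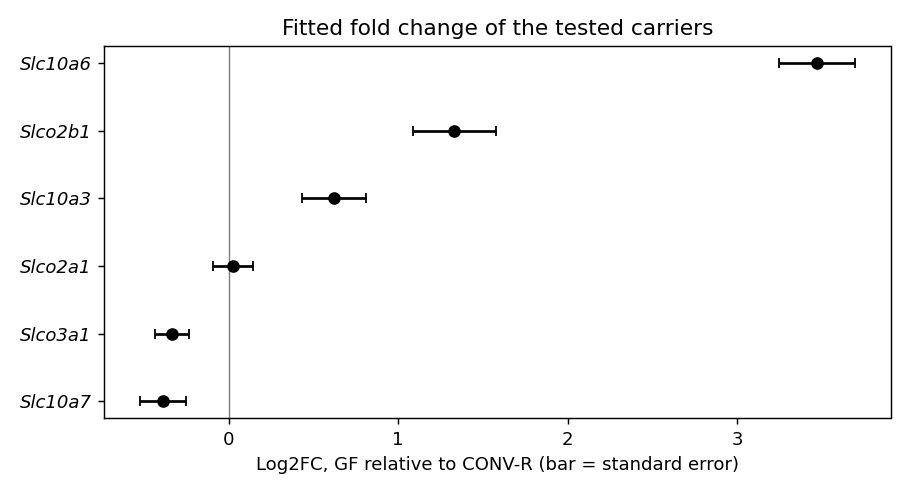
Fitted Log2FC of GF relative to CONV-R libraries (horizontal axis) for the 6 tested carrier genes (vertical axis), with the SE as bar. *Slc10a6* stands at 3.47 and *Slco2b1* at 1.33, *Slc10a3* at 0.62 and *Slco2a1* at 0.02, and *Slco3a1* and *Slc10a7* lie at -0.34 and -0.39.

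Levels of different genes were compared as CPM per kilobase (kb) of exon. In CONV-R mice *Slco2a1* led with 61.1 ± 7.43 CPM per kb (SD, n = 6), followed by *Slco3a1* with 21.2 ± 0.88. Then came *Slc10a3* (9.33 ± 2.39), *Slc10a7* (7.95 ± 0.85) and *Slco2b1* (5.96 ± 1.39), whose neighbours overlapped in range. *Slc10a6* was apart from them at 1.34 ± 0.38 CPM per kb, with only *Slco1a4* lower. Of all genes ranked, 79.5% had a higher level than *Slc10a6* and 3.35% a higher level than *Slco2a1*.

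In GF mice *Slco2a1* led as well, with 62.1 ± 9.62 CPM per kb (SD, n = 5), whereas *Slc10a6* had moved into a middle group. This group was made up of *Slco3a1* (16.8 ± 2.00), *Slco2b1* (14.9 ± 6.77), *Slc10a6* (14.7 ± 3.08) and *Slc10a3* (14.3 ± 3.33), whose ranges overlapped from each to the next. *Slc10a7* was apart below them at 6.08 ± 1.22 CPM per kb. In these mice 22.1% of the genes ranked had a higher level than *Slc10a6*. The order of the middle genes, and which genes made up the GF group, depended on the length used. With the longest transcript in place of all exon bases, *Slc10a7* was above *Slc10a3* in CONV-R mice (20.9 CPM per kb). It was then also above *Slc10a6* in GF mice (16.0 CPM per kb). *Slco3a1* then stood at 31.0 ± 3.70 CPM per kb (SD, n = 5) in GF mice. Its lowest GF library (26.4) was above the highest of *Slc10a6* (18.4), so these 2 genes were apart.

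**Figure D3:**
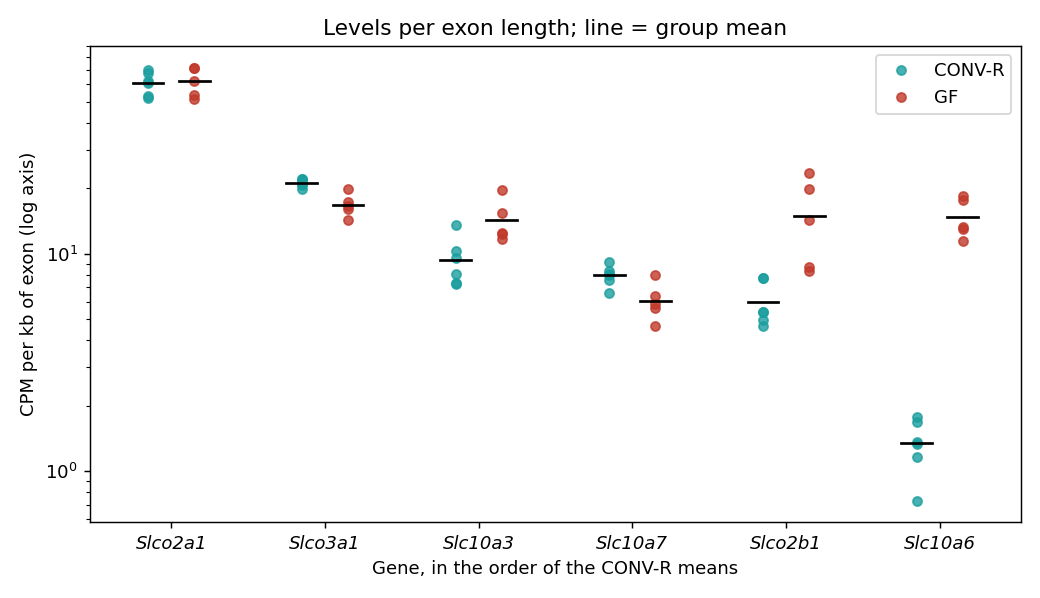
Level per exon length in CPM per kb (log axis) of the 6 tested carrier genes, in the order of their CONV-R means, with a dot per library and a line at the group mean. *Slc10a6* is the lowest at 1.34 in CONV-R (turquoise) and joins *Slco3a1*, *Slco2b1* and *Slc10a3* at 14.7 in GF (red) libraries, below *Slco2a1* at 62.1. With the longest transcript as length (not shown), *Slco3a1* stood apart above *Slc10a6* in GF libraries, at 31.0.

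Set against each relative within the same library, *Slc10a6* gained on all 5. Its level per kb relative to *Slc10a3* went from a median ratio of 0.146 in CONV-R to 1.06 in GF libraries. Relative to *Slc10a7* it went from 0.160 to 2.81. With the longest transcript as length, a choice made after the data were seen, these medians were 0.0610 and 1.07, and *Slc10a6* exceeded *Slc10a7* in 3 of the 5 GF libraries instead of all 5. Relative to *Slco2b1*, the carrier that moved the same way, the ratio still went from 0.233 to 0.925. For *Slco3a1* the medians were 0.0629 and 0.810 and for *Slco2a1* 0.0237 and 0.254. With the longest transcript, the medians were 0.171 and 0.680 for *Slco2b1*, 0.0340 and 0.439 for *Slco3a1*, and 0.0124 and 0.133 for *Slco2a1*. By that length *Slc10a6* exceeded *Slco3a1* in 0 of the 5 GF libraries, instead of 1. In none of the 5 ratios did the groups overlap. The choice of length cannot change this, since it scales all libraries alike. As *Slc10a6* was chosen for its difference between these libraries, this is a description. The Log2FC of *Slc10a6* exceeded that of *Slc10a7* by 3.86, of *Slco3a1* by 3.81, of *Slco2a1* by 3.45, of *Slc10a3* by 2.85 and of *Slco2b1* by 2.14.

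**Figure D4:**
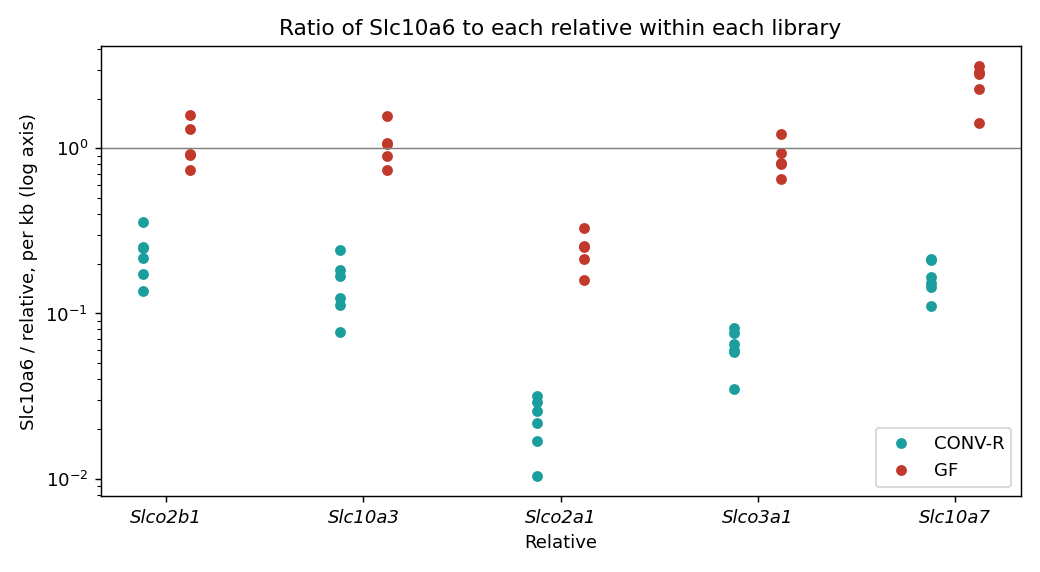
Ratio of the level per kb of *Slc10a6* to that of each of 5 relatives (horizontal axis) within each library, on a log axis, in CONV-R (turquoise) and GF (red) libraries, with a line at a ratio of 1. The GF ratios lie above the CONV-R ratios for every relative, and their medians are 1.06 for *Slc10a3*, 2.81 for *Slc10a7*, 0.925 for *Slco2b1*, 0.810 for *Slco3a1* and 0.254 for *Slco2a1*.

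Macrophage markers were also higher in GF libraries. Of the 12 markers of Kupffer cells, the liver macrophages, 8 rose and none fell in edgeR's test, with a median Log2FC of 1.55, and their summed level was 220 to 993 CPM in GF and 94.2 to 244 CPM in CONV-R libraries. None of the 12 was at 0 reads throughout. GF replicate 6 held the highest sum, 993 CPM, with 24.1 CPM of *Slc10a6* and 51.5 CPM of *Slco2b1*. CONV-R replicate 1 had a sum of 244 CPM, with 1.55 CPM of *Slc10a6* and 32.0 CPM of *Slco2b1*. GF replicates 4 and 5 had sums of 220 and 226 CPM, with 28.3 and 27.6 CPM of *Slc10a6* and 49.8 and 84.6 CPM of *Slco2b1*. The part of macrophages in the levels of the carriers was not tested. Without GF replicate 6, 4 of the 12 markers passed the test, and 5 passed without CONV-R replicate 2, 4 or 5. In bulk samples like these, more cells of a type and more RNA per cell cannot be told apart.

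**Figure D5:**
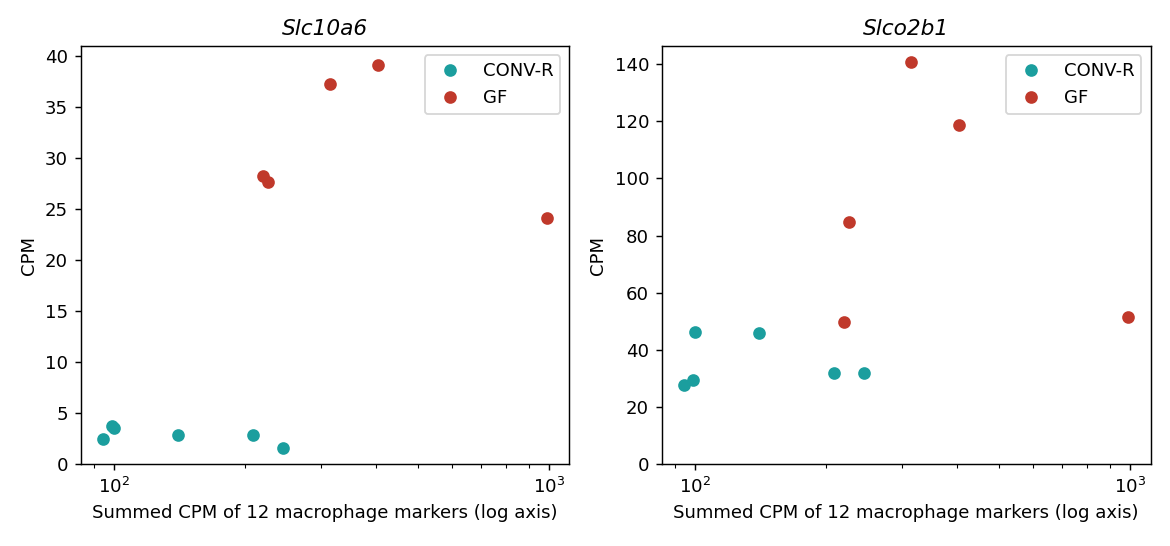
Level of *Slc10a6* (left) and *Slco2b1* (right) in CPM against the summed CPM of the 12 Kupffer cell markers (log axis) in the CONV-R (turquoise) and GF (red) libraries. GF replicate 6, with a marker sum of 993 CPM, has 24.1 CPM of *Slc10a6* and 51.5 CPM of *Slco2b1*. CONV-R replicate 1, at a marker sum of 244 CPM, has 1.55 CPM of *Slc10a6* and 32.0 CPM of *Slco2b1*. The part of macrophages in these levels was not tested.

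Markers of other cell types were examined in the same way. None of the 12 tested hepatocyte markers passed the test, and their sums were 40.0 to 90.6 CPM in GF and 28.2 to 63.6 CPM in CONV-R libraries. Among the 13 tested markers of large vessels and central veins 3 rose (*Ly6c1*, *Cd34* and *Ly6a*, with Log2FC of 3.15, 1.20 and 0.97) and none fell. Of 2 tested cholangiocyte markers *Spp1* rose, from 2.47 to 13.2 CPM, with list sums of 13.7 to 38.7 CPM in GF and 0.75 to 9.33 CPM in CONV-R libraries. None of the 5 stellate and mural or the 4 lymphocyte markers tested passed. Without 1 library these counts moved: 5 large-vessel markers passed without GF replicate 2 or 5, 2 cholangiocyte markers without GF replicate 4 or 5, 1 stellate marker without GF replicate 6 and 1 lymphocyte marker without GF replicate 5. The part of these cell types in the levels of the carriers was not tested.

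Carriers of the same families outside the 7 genes, with the related SLC22 genes and the bile acid exporter subunits, were mostly too low to test. Of 31 listed genes 7 could be tested, 1 fell and none rose, with a median Log2FC of -0.46. *Slc22a15*, a carrier of organic zwitterions, fell by 0.46 on the log2 scale, from 58.8 ± 5.98 CPM (SD, n = 6) to 42.9 ± 6.13 CPM (SD, n = 5; adjusted p = 0.0349 in edgeR's quasi-likelihood test). The call was lost without any 1 of CONV-R replicates 2, 4 and 5 or GF replicates 1, 2 and 4, with adjusted p up to 0.0899. The hepatocyte bile acid carrier *Slc10a1*, named here in addition, had 74 reads in GF and 123 in CONV-R mice, and the hepatocyte carrier *Slco1b2* had 37 and 70. The 24 carriers that were not tested had 15 to 79 reads in all per library, apart from GF replicate 2, where 22 of them were counted with 137 reads.

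Efflux pumps hand organic anions and drugs on out of the cell. Of 9 tested ABC pumps 2 rose and none fell, with a median Log2FC of -0.04. *Abcg2*, which pumps out sulfated conjugates and urate, rose from 50.7 ± 8.43 CPM (SD, n = 6) to 168 ± 51.7 CPM (SD, n = 5), a Log2FC of 1.73 (adjusted p = 1.25e-05 by edgeR's quasi-likelihood test). *Abcb1a*, a P-glycoprotein gene, rose from 1.69 ± 1.33 to 5.98 ± 3.10 CPM (Log2FC 1.79, adjusted p = 0.0481), with overlapping groups. This call was lost without any 1 of CONV-R replicates 1 to 4 or GF replicates 2, 5 and 6, with adjusted p up to 0.109. The other 7 pumps, among them *Abcc4* at 207 CPM in GF and 157 CPM in CONV-R mice (adjusted p = 0.055), did not pass.

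Sulfate conjugation makes the substrates of SLC10A6. Of 23 tested genes for sulfation, sulfatases and sulfate supply 1 rose and 1 fell, with a median Log2FC of 0.04. *Sult1a1*, a sulfotransferase for phenols, was at 139 ± 33.1 CPM (SD, n = 5) in GF and 65.4 ± 25.8 CPM (SD, n = 6) in CONV-R mice with a Log2FC of 1.09 (adjusted p = 0.00481 by edgeR's quasi-likelihood test). *Slc35b3*, which brings the activated sulfate donor into the Golgi, was at 74.5 ± 10.5 CPM in GF and 129 ± 52.0 CPM in CONV-R mice (Log2FC -0.79, adjusted p = 0.0267). The call of *Slc35b3* was lost without any 1 of CONV-R replicate 4 or GF replicates 1, 2, 4 and 6, with adjusted p up to 0.0729. None of 14 tested genes for bile acid synthesis, conjugation and bile acid receptors passed, with a median Log2FC of -0.05, and *Nr1h4*, which encodes FXR, stood at 1.78 ± 1.57 CPM in GF and 3.58 ± 0.88 CPM in CONV-R mice (adjusted p = 0.296).

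The 17 tested genes for steroid hormone receptors and steroid interconversion had a median Log2FC of 0.00. Of 16 tested prostaglandin genes 2 rose and 1 fell, with a median Log2FC of 0.07. *Hpgd*, the dehydrogenase that begins the breakdown of prostaglandins once *Slco2a1* has let them into the cell, rose from 505 to 987 CPM (Log2FC 0.97, adjusted p = 0.000178), while *Slco2a1* itself was at 827 and 841 CPM. *Ptgfrn*, an inhibitor of prostaglandin binding to the F receptor, had a Log2FC of 1.13 (adjusted p = 0.0112), and *Tbxas1*, the thromboxane synthase, of -1.09 (adjusted p = 0.0014). *Ptgs1*, a cyclooxygenase, was at 600.5 CPM in GF and 599 CPM in CONV-R mice and did not pass.

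Of 8 tested genes of thyroid hormone transport, deiodination and receptors 4 rose and none fell, with a median Log2FC of 0.72. No deiodinase gene could be tested, and no receptor gene passed. The receptor genes *Thra* and *Thrb* had Log2FC of -0.41 (adjusted p = 0.0928) and 1.42 (adjusted p = 0.129) in edgeR's quasi-likelihood test. *Slc7a5* and *Slc3a2*, the paired chains of a carrier for large neutral amino acids and thyroid hormones, had Log2FC of 1.08 (adjusted p = 0.00049) and 0.51 (adjusted p = 0.0113) by edgeR's quasi-likelihood test. *Thrsp*, a thyroid hormone-responsive gene of lipid synthesis, had a Log2FC of 0.93 (adjusted p = 0.00591). *Slc16a10*, a carrier of aromatic amino acids and thyroid hormones, was low, at 3.13 CPM in GF and 0.69 CPM in CONV-R mice (Log2FC 2.12, adjusted p = 0.0461). It kept its call without GF replicate 4 and fell below the filter on low counts without CONV-R replicate 6. Without any 1 of the other 9 libraries the call was lost, with adjusted p of 0.056 to 0.138. Over these 7 lists 13 of 94 tested genes were called, 10 of them higher and 3 lower in GF mice. Of all tested genes 7.48% were called, 4.80% higher and 2.67% lower. The lists were chosen with earlier results of these data known, so this is a description.

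The genes whose log2 CPM ran most like that of *Slc10a6* over the 11 libraries were *Sgms1* (Pearson r = 0.990), *Stat2* (0.981), *Tle1* (0.980), *Vwa3a* (0.973) and *Abcg2* (0.972). All 5 were higher in GF mice, with Log2FC of 1.60, 0.47, 1.19, 3.23 and 1.73, so that the likeness holds the group difference. With the group means subtracted, the leading genes were *Ppp3cc* (0.953), *Fmo1* (0.914), *Ctgf* (0.898), *Esr1* (0.892) and *Mrps35* (0.873), none of them shared with the first 5. Of these, *Ctgf*, a matricellular growth factor, was itself far apart between the groups, with 225 CPM in GF and 28.5 CPM in CONV-R mice, whereas *Fmo1* was at 307 and 290 CPM. For *Slco2b1* the leading gene after subtraction of group means was *Aldh5a1* (0.958), for *Slc10a3* *Oxa1l* (0.968), for *Slc10a7* *6030458C11Rik* (0.934), for *Slco2a1* *Prrc1* (0.933) and for *Slco3a1* *Pax5* (0.918). These are the highest of 12905 correlations over few libraries and are given as a description.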

How the data were processed

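The authors deposited raw counts per gene, made by trimming with Trim Galore 0.4.4, mapping to GRCm38 with STAR 2.5.2b and counting with featureCounts 1.5.2. The annotation release and the strand setting are not given in the sources used here. The authors also deposited normalized values on a log2 scale, used here only as an alternative. The paper names the DESeq method for them, and the transform is not given in the sources used here. Groups followed the sample labels, with 6 CONV-R and 5 GF libraries and 1 mouse each, so p-values measure the spread between mice. The labels name no sequencing batch.

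Counts were fitted in R 4.3.3 with edgeR 4.0.16 (filterByExpr, TMM scaling, quasi-likelihood test). P-values were adjusted after Benjamini and Hochberg over the 12905 tested genes, with a threshold of 0.05. Fits were tested on simulated data. CPM are TMM-scaled. Exon lengths, positions and overlaps came from GENCODE M21 (GRCm38), which held 29081 of the 29307 gene identifiers. Correlations used log2 CPM with a prior count of 2. Promoters came from RefSeq (GRCm38.p6). The limit for a count of 0 was set at 3 reads. Figures used Python 3.11.15 with matplotlib 3.10.9.

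The 7 genes, the gene and marker lists and the rule for named genes were chosen with earlier results of these data known. The rule took the 7 genes, every called gene of the 7 pathway lists, the genes most correlated with each of the 7 and the sorting markers. *Slc10a1*, *Slco1b2*, *Abcc4*, *Nr1h4*, *Ptgs1*, *Thra*, *Thrb* and single cell type markers were added after their values were seen. A further called gene is not reported here. Replicate numbers occur in both groups, but same-numbered mice did not deviate together (correlations of -0.01 to 0.20), so the comparison was not blocked. Alternatives were DESeq2 1.42.0, its size factors in edgeR, a minimum of 10 counts in each library or none at all, a replicate block, the longest transcript as length (for the ratios, chosen after seeing the data), unscaled library totals, the authors' normalized values, and each library left out in turn.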

Additional observations from a re-analysis of the deposited data

Results flagged for a closer look

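Of 78 groups of values examined, 12 held a sample far from the rest of its group by Dixon's criterion, which chance alone gives in about 1 of 20 groups. Among the carriers, *Slco1a4* was 0.793 CPM in GF replicate 5, next to 0.193 CPM in the following library, which rests on 6 reads. In the sulfation list *Slc35b3* was 228 CPM in CONV-R replicate 3 (next 138) and 92.7 CPM in GF replicate 5 (next 72.6), and *Sult1a1* was 116 CPM in CONV-R replicate 3 (next 63.2).

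GF replicate 6 stood apart in the Kupffer cell and macrophage markers. Their sum was 993 CPM there (next 406), with *Timd4* at 38.8 CPM (next 15.3), *Csf1r* at 151 CPM (next 57.8), *C1qb* at 72.8 CPM (next 27.1), *C1qc* at 43.0 CPM (next 18.2) and *Vsig4* at 127 CPM (next 38.6). *Cd163* was 8.15 CPM in CONV-R replicate 1 (next 5.22), and the cholangiocyte marker *Spp1* was 8.47 CPM in CONV-R replicate 3 (next 2.33).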

How the results depend on the processing

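Of the 6 tested carriers, *Slc10a6* and *Slco2b1* passed the threshold under every fit to the counts that was run. The Log2FC of *Slc10a6* was 2.67 in the authors' normalized values, which are compressed most for weakly counted genes, and its excess over *Slc10a3*, *Slc10a7*, *Slco2a1*, *Slco3a1* and *Slco2b1* was 2.16, 2.99, 2.64, 2.94 and 1.64. DESeq2 called 1527 genes (9.83% of 15540) and 4 of the 6 carriers, adding *Slc10a3* and *Slco3a1*, and 2 genes in each of the bile acid and steroid lists. At least 10 counts in every library added *Slco3a1* and gave 1 called ABC pump, 0 steroid genes, and medians of 0.0303 for the bile acid and 0.47 for the thyroid list. Without a filter 1 bile acid gene was called, and *Slc10a3* passed. With the longest transcript, levels in CPM per kb were 20.9 and 16.0 for *Slc10a7*, 116 and 118 for *Slco2a1*, 39.2 and 31.0 for *Slco3a1* in CONV-R and GF mice, and 8.11 for *Slco2b1* in CONV-R mice.

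With 1 library left out, 622 to 1260 genes and 2 to 3 carriers were called, with 622 without GF replicate 6 and 625 without CONV-R replicate 4. List calls ranged from 0 to 1 for other carriers, 1 to 2 for ABC pumps, 1 to 3 for sulfation and 0 to 2 for bile acids, and medians from -0.18 to 0.0171 for bile acids and from -0.21 to 0.0280 for steroids. As the replicate numbers share no more than a number, the replicate block (10 libraries) is given here only: it called 1101 genes, against 931 on the same libraries without it, and 1 bile acid gene, against 0. *Slc10a3* passed and the call of *Slc16a10* was lost both with the block (adjusted p = 0.0747) and on the same libraries without it (adjusted p = 0.0666), which lack CONV-R replicate 3. Among marker lists, no filter called 1 sinusoidal, 5 large-vessel, 1 stellate and 3 cholangiocyte markers, at least 10 counts in every library 0 cholangiocyte markers, DESeq2 1 stellate and 1 lymphocyte marker, and the block 2 sinusoidal and 1 lymphocyte marker. The causes of these differences were not tested. No result changed sign among the called values. Depth limits *Slc10a6* in CONV-R mice (20 to 47 reads), *Slco1a4* and the carriers with few reads.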
